A study of Homo sapiens and Mus musculus with 18 samples.

Results

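Pyrimidine nucleotides are the building blocks of RNA and DNA that carry uracil, cytosine or thymine. In de novo synthesis, CAD joins glutamine, bicarbonate and aspartate into the first ring intermediate, DHODH oxidises it on the inner mitochondrial membrane and passes the electrons to ubiquinone, and UMPS completes UMP. CMPK1 in the cytosol and nucleus and CMPK2 in mitochondria phosphorylate UMP and CMP, CTPS1 and CTPS2 turn UTP into CTP, TYMS makes thymidylate, and DTYMK and NME1 add the further phosphates. DHODH ties the pathway to the respiratory chain, and TYMS is a classical drug target in cancer of the digestive tract.

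These 10 genes were chosen by name, as genes of pyrimidine nucleotide synthesis, and all 10 had a row among the 34505 gene rows of the human files. The study concerns mitochondrial keratin 17 (K17, gene KRT17) and drug resistance in pancreatic cancer, and it also holds a mouse line that was not used here. L3.6 is a human line labelled as pancreatic adenosquamous carcinoma and was either a CRISPR-Cas9 knockout of K17 or wild type for it. PANC-1 is a human line labelled as pancreatic ductal adenocarcinoma and carried either over-expressed K17 or an empty vector. Each of the 4 groups had 3 RNA-seq libraries of cells grown in DMEM with serum, 12 in all, and no drug treatment is labelled. The labels do not say whether the knockout is 1 clone, which promoter drives K17, or whether replicates were separate cultures, so p-values measure the spread between these libraries, which may be technical, and clone or culture cannot be told apart from K17.

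The libraries held 9485257 to 15476629 counts in L3.6 and 59671178 to 70789559 in PANC-1. KRT17 followed the labels, with 175 to 204 counts in the knockout against 1112 to 1654 in wild-type L3.6, and 8597 to 9884 counts with K17 against 0 to 2 with the empty vector in PANC-1. Empty vector replicate 2 of PANC-1 lay at 103.2 on the first principal component while the other 5 libraries lay between -23.9 and -17.5, and 18.82% of its counts came from mitochondrial DNA, where the others had 9.88% to 10.8%. On the first component of L3.6, the knockout lay between -33.7 and -17.1, wild-type replicates 2 and 3 at 33.9 and 36.1, and wild-type replicate 1 at 6.5. Of 8 epithelial markers, none was at 0 in any of the 4 groups, but their levels in CPM (counts scaled to library size) were uneven. KRT8 was at 1110 to 1390 CPM in L3.6 and 569 to 1040 CPM in PANC-1. KRT19 was at 1550 to 2110 CPM and 315 to 643 CPM. CDH1 was low in both lines, at 0.575 to 3.17 CPM in L3.6 and 0.114 to 0.92 CPM in PANC-1. KRT7 was low only in PANC-1 (0.706 to 1.48 CPM, against 81.1 to 145 CPM in L3.6). The squamous marker TP63 was high in L3.6 (387 CPM in the knockout and 278 CPM in wild type) and near 0 in PANC-1. KRT6A was at 0 in both L3.6 groups. Of 8 immune markers, the T cell marker CD3E was at 0 in all 12 libraries. In PANC-1 the 8 summed to 35.4 to 42.5 CPM with K17 and 35.7 to 51.2 CPM with the empty vector, most of it CD68. In L3.6 they summed to 1.7 to 6.19 CPM in the knockout and 3.97 to 4.78 CPM in wild type. Of 7 fibroblast markers, 7 were detected (above 0 in at least 1 library) in both PANC-1 groups, LUM at no more than 0.0324 CPM. The summed level of the 7 was 141 to 155 CPM in the L3.6 knockout and 173 to 197 CPM in L3.6 wild type. In PANC-1 it was 139 to 145 CPM with K17 and 27.0 to 44.4 CPM with the empty vector, most of it COL1A1. The marker COL3A1 ran the other way, at 0.399 ± 0.0242 CPM with K17 and 2.87 ± 0.306 CPM with the empty vector (SD, n = 3 each). Of 5 endothelial markers, 4 were detected in the L3.6 knockout (3.49 to 4.03 CPM summed) and 5 in wild type (8.78 to 13.0 CPM). The part of such cells or markers in the results below was not tested. Some housekeeping genes had improbably low counts, such as TUBB with 0 in all PANC-1 libraries, and CANX with 67 in PANC-1 empty vector replicate 2 where the other 5 held 16969 to 21772. A gene's row may thus miss some of its reads, to an extent that may differ between lines and, for empty vector replicate 2, within a line.

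Sequences next to the starts of 2 genes are shown first: CMPK2, the member that passed in L3.6, and DHODH, the mitochondrial step of the pathway. Both come from RefSeq on GRCh38.p14 and lie before a RefSeq start of the gene, cut so that at most 30 bases are in GENCODE 29 exons. CMPK2 has 3 such windows, and its stretch lies before the start of 1 of them but inside the gene as GENCODE 29 draws it, downstream of the GENCODE start. For CMPK2 (chr2:6865825-6865854, minus strand) the capitals mark a match on the opposite strand to GAAANGAAA, a short-spaced form of the interferon response element. In DHODH (chr16:72008494-72008617, plus strand) they mark the E-box CACGTG, a motif that MYC is known to bind.
CMPK2: tgccccgcctgggcctccggcTTTCGTTTC
DHODH: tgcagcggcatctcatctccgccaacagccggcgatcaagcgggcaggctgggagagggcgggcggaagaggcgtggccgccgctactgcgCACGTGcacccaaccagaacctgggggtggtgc

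All 10 genes had at least 1 annotated window in that table, 14 windows in all, each from 250 bases before the start to 50 after it and searched on both strands. GAAANGAAA was found in 1 gene of the 10, CMPK2, with 1 match before the start and another after it, and in 3.12% of all 35116 windows. The same element with 1 more base between the repeats was in 0 of the 14 windows and in 3.57% of all. The E2F-like motif TTTCCCGC was found in CMPK2 and TYMS and in 1.63% of all windows, and CACGTG in DHODH and NME1 and in 7.26% of all. These are matches of letters only and say nothing of binding.

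**Figure D1:**
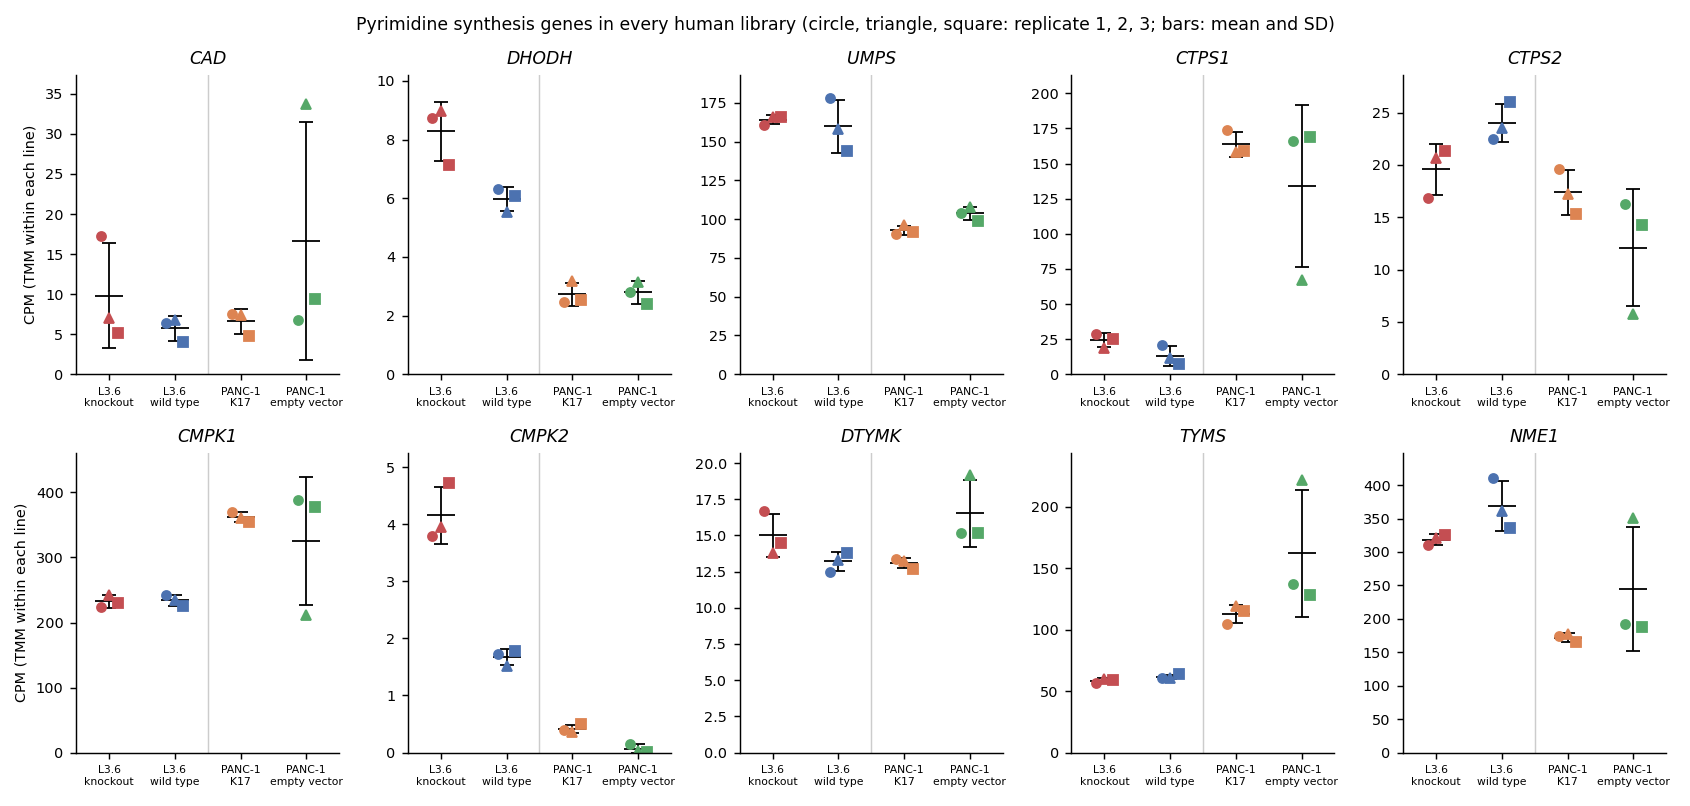
CPM (counts divided by the TMM-scaled library size within each line) of the 10 genes in each of the 12 libraries, on linear axes from 0; points are libraries and bars the mean and SD of 3. CMPK2 is higher in the L3.6 knockout than in wild type, and the triangle of the PANC-1 empty vector group, replicate 2, lies far from its group in CAD, CTPS1, CTPS2, CMPK1, TYMS and NME1.

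Of the rows of the 3 enzymes that lead to UMP, 1 held a high level and 2 low levels. Since a row may miss some of its gene's reads, a low level need not mean a scarce transcript. Per kilobase of annotated exon and on a scale shared by the 12 libraries, UMPS had a median of 19.3 CPM per kb in the L3.6 knockout, 17.9 in L3.6 wild type, 13.6 in PANC-1 with K17 and 15.8 with the empty vector. DHODH had 1.09, 0.753, 0.409 and 0.468 CPM per kb in the same groups. CAD, which lies at chr2:27217390-27243943 in GRCh38 as GENCODE 29 gives it, had 0.738, 0.661, 0.998 and 1.26 CPM per kb.

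CAD did not separate the groups of either line. It had 17.3, 7.05 and 5.11 CPM in L3.6 knockout replicates 1 to 3, against 6.43, 6.83 and 3.98 CPM in wild type, and the groups overlapped with knockout replicate 1 far above the other 5 libraries. The log2 fold change of 0.77 (SE 0.463) did not pass the quasi-likelihood test of edgeR after adjustment over all genes (adjusted p = 0.316, against a threshold of 0.05). In PANC-1, CAD had 7.58, 7.45 and 4.77 CPM with K17, against 6.80, 33.7 and 9.43 CPM with the empty vector, where replicate 2 stood 4.52-fold above the median of the other 5 PANC-1 libraries. The PANC-1 log2 fold change of -1.33 (edgeR adjusted p = 0.573, SE 0.639) shrank to -0.30 (edgeR adjusted p = 0.469, SE 0.24) without that library.

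DHODH (chr16:72008588-72027664) was somewhat higher in every L3.6 knockout library than in any wild-type library, but not past the threshold. It had 8.73, 8.99 and 7.12 CPM in the knockout, against 6.30, 5.53 and 6.09 CPM in wild type. The log2 fold change was 0.47 with a 95% interval of 0.05 to 0.88 and an unadjusted edgeR p of 0.0318, which became 0.143 after adjustment over 13891 genes. In PANC-1, DHODH had 2.47, 3.18 and 2.52 CPM with K17, against 2.81, 3.16 and 2.40 CPM with the empty vector, and the groups overlapped fully. Its PANC-1 log2 fold change was -0.04 (95% interval -0.51 to 0.43, edgeR adjusted p = 0.953), and 0.06 (-0.36 to 0.47) without empty vector replicate 2. Empty vector replicate 2 lay within the range of the other libraries for DHODH.

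UMPS (chr3:124730366-124749273) varied little. It had 161, 166 and 166 CPM in the L3.6 knockout, against 178, 158 and 144 CPM in wild type, with overlapping groups and a log2 fold change of 0.04 (edgeR adjusted p = 0.771, SE 0.0764). In PANC-1 it had 90.7, 96.3 and 91.6 CPM with K17, against 104, 108 and 99.1 CPM with the empty vector. Every K17 library was lower than every empty vector library, with a log2 fold change of -0.16 (edgeR adjusted p = 0.674), or -0.13 without empty vector replicate 2 (edgeR adjusted p = 0.0681, SE 0.042). A processed pseudogene on the opposite strand overlaps UMPS, and whether counting used strand is not given in the sources used here.

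Of the CTP synthases, CTPS1 differed between the lines and CTPS2 did not separate them. CTPS1 (chr1:40979335-41012565), the isoenzyme that proliferating lymphocytes are known to need, had 28.8, 18.8 and 24.9 CPM in the L3.6 knockout, against 20.8, 11.3 and 7.02 CPM in wild type. The groups overlapped only through wild-type replicate 1, and the log2 fold change of 0.87 (SE 0.368) did not pass (edgeR adjusted p = 0.178). Without wild-type replicate 1 it was 1.42 and passed (edgeR adjusted p = 0.017), in a range of 0.017 to 0.383 over all alternatives. In PANC-1, CTPS1 had 174, 158 and 159 CPM with K17, against 166, 67.1 and 169 CPM with the empty vector, and the sign of its log2 fold change rested on empty vector replicate 2 (0.29 with it, -0.04 without it).

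CTPS2 (chrX:16588003-16712936), the second CTP synthase, ran lower in every L3.6 knockout library than in any wild-type library. It had 16.8, 20.7 and 21.3 CPM in the knockout, against 22.5, 23.5 and 26.0 CPM in wild type, a log2 fold change of -0.29 (edgeR adjusted p = 0.182, SE 0.127). In PANC-1 it had 19.6, 17.2 and 15.3 CPM with K17, against 16.3, 5.72 and 14.3 CPM with the empty vector, with a log2 fold change of 0.52 (edgeR adjusted p = 0.688), and 0.17 without empty vector replicate 2. S100G lies within CTPS2 on the opposite strand. Per kilobase, CTPS1 exceeded CTPS2 in PANC-1 (15.5 CPM per kb against 3.52 with K17) and CTPS2 exceeded CTPS1 in L3.6 (3.32 CPM per kb against 1.91 in the knockout).

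CMPK2 was the member that changed in L3.6. It encodes the mitochondrial UMP and CMP kinase, whose transcript is known to be induced by interferon, and it lies at chr2:6840570-6866635, overlapping the antiviral gene RSAD2 on the opposite strand. It had 3.79, 3.96 and 4.72 CPM in the L3.6 knockout (49, 55 and 61 counts), against 1.72, 1.52 and 1.78 CPM in wild type (27, 14 and 21 counts). All 3 knockout libraries exceeded all 3 wild-type libraries, and the mean was 4.16 ± 0.498 CPM in the knockout (SD, n = 3) and 1.67 ± 0.136 CPM in wild type (SD, n = 3).

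For CMPK2 the log2 fold change was 1.30 (SE 0.256, 95% interval 0.72 to 1.89), or 2.47-fold, and passed edgeR's test (adjusted p = 0.0173). Pooled counts gave a ratio of 2.50 with an exact 95% interval of 1.86 to 3.40 that covers counting error only. The size moved little when single libraries were left out (1.20 to 1.37), but the edgeR adjusted p was 0.0611 without knockout replicate 2, 0.0867 without knockout replicate 3 and 0.0677 without wild-type replicate 2. Over all alternatives the adjusted p ran from 0.0116 to 0.19. RSAD2 had 1, 0 and 2 counts in the knockout and 0, 1 and 1 in wild type, so few reads were assigned to the partner gene.

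In PANC-1, CMPK2 was scarce and again all 3 libraries of 1 group lay above all 3 of the other. It had 0.389, 0.368 and 0.501 CPM with K17 (24, 22 and 31 counts), against 0.156, 0.0294 and 0.0157 CPM with the empty vector (11, 2 and 1 counts). Pooled counts gave a ratio of 6.16 with an exact 95% interval of 3.46 to 11.8, again for counting error only, and 4.72 (2.55 to 9.54) without empty vector replicate 2. The fitted log2 fold change was 2.59 (SE 0.71) and did not pass edgeR's test (adjusted p = 0.258), nor without empty vector replicate 2 (2.22, SE 0.676, edgeR adjusted p = 0.0613), while DESeq2 called it (2.59, adjusted p = 0.0398). The adjusted p ran from 0.037 to 0.729 over all alternatives.

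CMPK2 thus stood higher where K17 was lower in L3.6 and, in counts, higher where K17 was higher in PANC-1, and this difference was tested. With each effect taken as K17-high minus K17-low, the PANC-1 effect minus the L3.6 effect was 3.85 on the log2 scale (SE 0.697, 95% interval 2.31 to 5.38, edgeR adjusted p = 0.0206). Without empty vector replicate 2 it was 3.58 (edgeR adjusted p = 0.00485, SE 0.66). It was no longer past the threshold without knockout replicate 3 (edgeR adjusted p = 0.0678), wild-type replicates 2 or 3 (0.0574 and 0.0615) or K17 replicate 3 (0.0517), with a range of 1.61e-07 to 0.0678 over all alternatives. Of the 10 genes 1 passed and its value was positive, against 1.54% of the 17583 genes tested (1.25% positive and 0.284% negative). Without empty vector replicate 2 it was again 1 of 10, against 11.5% of all (8.72% positive and 2.82% negative).

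CMPK1 (chr1:47333797-47378839), the kinase of the same step outside mitochondria, was far more abundant than CMPK2 and showed no like difference. It had 224, 243 and 230 CPM in the L3.6 knockout, against 243, 234 and 226 CPM in wild type, a log2 fold change of -0.01 with a 95% interval of -0.13 to 0.11. In PANC-1 it had 370, 360 and 355 CPM with K17, against 388, 212 and 377 CPM with the empty vector, where replicate 2 stood at 0.574 of the median of the other libraries. Without that library every K17 value was below both empty vector values, with a log2 fold change of -0.08 (edgeR adjusted p = 0.0981, SE 0.0296), and with it the log2 fold change was 0.15.

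**Figure D2:**
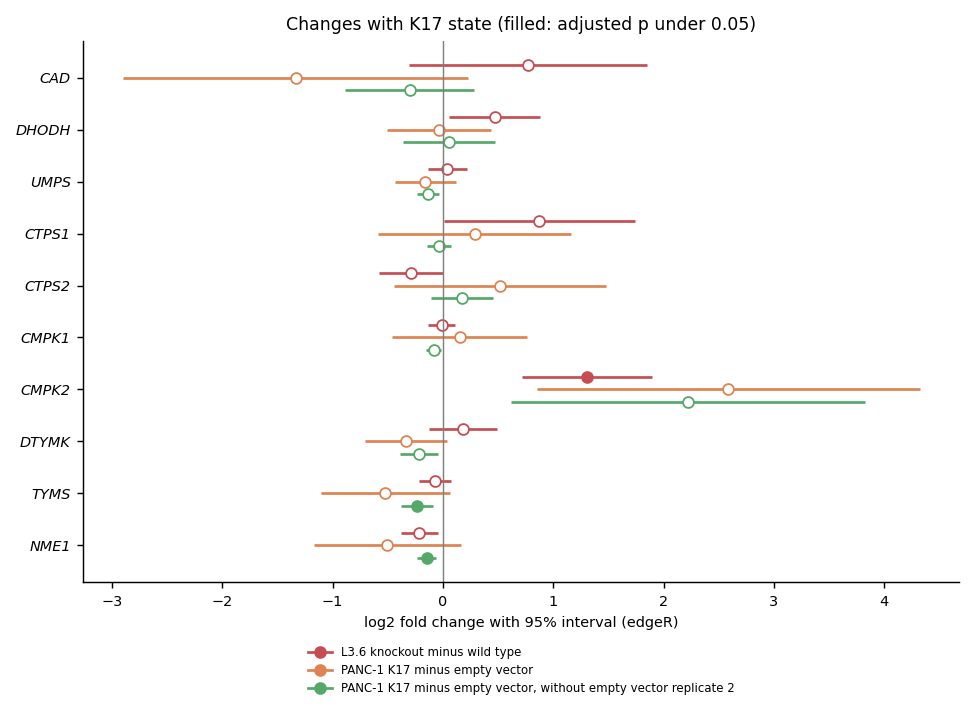
Log2 fold changes with 95% intervals (edgeR) for the 10 genes in L3.6 knockout minus wild type, PANC-1 K17 minus empty vector, and the second comparison without empty vector replicate 2; filled points passed an adjusted p of 0.05. CMPK2 passed in L3.6, TYMS and NME1 passed in PANC-1 once the library was left out, and the PANC-1 intervals of CAD, CTPS1, CTPS2, CMPK1, TYMS and NME1 narrowed without it.

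Of the kinases and the synthase that lead to dTTP, TYMS and NME1 passed in PANC-1, lower with K17, when empty vector replicate 2 was left out, and DTYMK did not. TYMS (chr18:657604-673578), thymidylate synthase and the target of fluorouracil, had 105, 119 and 115 CPM with K17, against 137, 222 and 128 CPM with the empty vector. Every K17 library was below every empty vector library, and replicate 2 was 1.86-fold above the median of the other 5. The log2 fold change was -0.52 (edgeR adjusted p = 0.549, SE 0.239) with that library and -0.24 (edgeR adjusted p = 0.0384, SE 0.0603) without it, in a range of 0.0384 to 0.96 over all alternatives.

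In L3.6, TYMS had 56.3, 59.8 and 59.2 CPM in the knockout, against 60.6, 60.4 and 63.6 CPM in wild type, with a log2 fold change of -0.07 (95% interval -0.22 to 0.07, edgeR adjusted p = 0.473). The groups did not overlap, but they lay within a few CPM of each other. ENOSF1, which overlaps TYMS on the opposite strand, had 1121 to 1379 counts in the knockout and 911 to 1480 in wild type.

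DTYMK (chr2:241675742-241686991), thymidylate kinase, had 16.7, 13.8 and 14.5 CPM in the L3.6 knockout, against 12.5, 13.3 and 13.8 CPM in wild type. The lowest knockout and the highest wild-type library both round to 13.8 CPM, and the log2 fold change was 0.18 (edgeR adjusted p = 0.4, SE 0.134). In PANC-1 it had 13.4, 13.2 and 12.7 CPM with K17, against 15.2, 19.2 and 15.2 CPM with the empty vector, and the groups did not overlap. The PANC-1 log2 fold change was -0.34 (edgeR adjusted p = 0.545, SE 0.153), and -0.22 (edgeR adjusted p = 0.0775, SE 0.0717) without empty vector replicate 2.

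NME1 (chr17:51153536-51162428), a nucleoside diphosphate kinase also known as a metastasis suppressor, ran lower in the L3.6 knockout and lower with K17 in PANC-1. It had 310, 321 and 325 CPM in the knockout, against 410, 362 and 336 CPM in wild type, a log2 fold change of -0.21 (edgeR adjusted p = 0.105, SE 0.0729). In PANC-1 it had 174, 177 and 165 CPM with K17, against 193, 351 and 188 CPM with the empty vector. The groups overlapped in neither line, and empty vector replicate 2 stood 1.98-fold above the median of the other 5 PANC-1 libraries.

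The PANC-1 log2 fold change of NME1 was -0.50 (edgeR adjusted p = 0.61, SE 0.273), and -0.15 (edgeR adjusted p = 0.0348, SE 0.0382) without empty vector replicate 2, in a range of 0.0348 to 0.96 over all alternatives. NME2, a near copy that lies beside it, and the readthrough gene NME1-NME2 have rows of their own, so the split of reads between them is uncertain. NME2 had a log2 fold change of -0.13 in the L3.6 knockout (edgeR adjusted p = 0.276) and of -0.10 with K17 in PANC-1 without that library (edgeR adjusted p = 0.0842).

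Counted over the 10 genes, 1 rose and 0 fell in the L3.6 knockout, against 6.1% of 13891 genes that were higher and 3.51% that were lower (9.61% in either direction). In 6 of the 10 the L3.6 groups did not overlap, 3 higher and 3 lower in the knockout, where 33.2% of all genes had groups without overlap. The median log2 fold change was 0.11 for the 10 genes and -0.01 for all genes tested.

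In PANC-1, edgeR called 0 of the 10, against 0.644% of 16295 genes (0.583% higher and 0.0614% lower). At an unadjusted p under 0.05 edgeR counted 1 of them, DESeq2 called 1 and limma-voom 0. In 5 of the 10 the groups did not overlap, 1 higher and 4 lower with K17, against 25.6% of all genes. Without empty vector replicate 2, edgeR called 2 of 10, both lower, where 20.7% of 16640 genes passed, 11.4% higher and 9.25% lower, and the groups did not overlap in 6 of 10, against 48.8% of all genes.

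**Figure D3:**
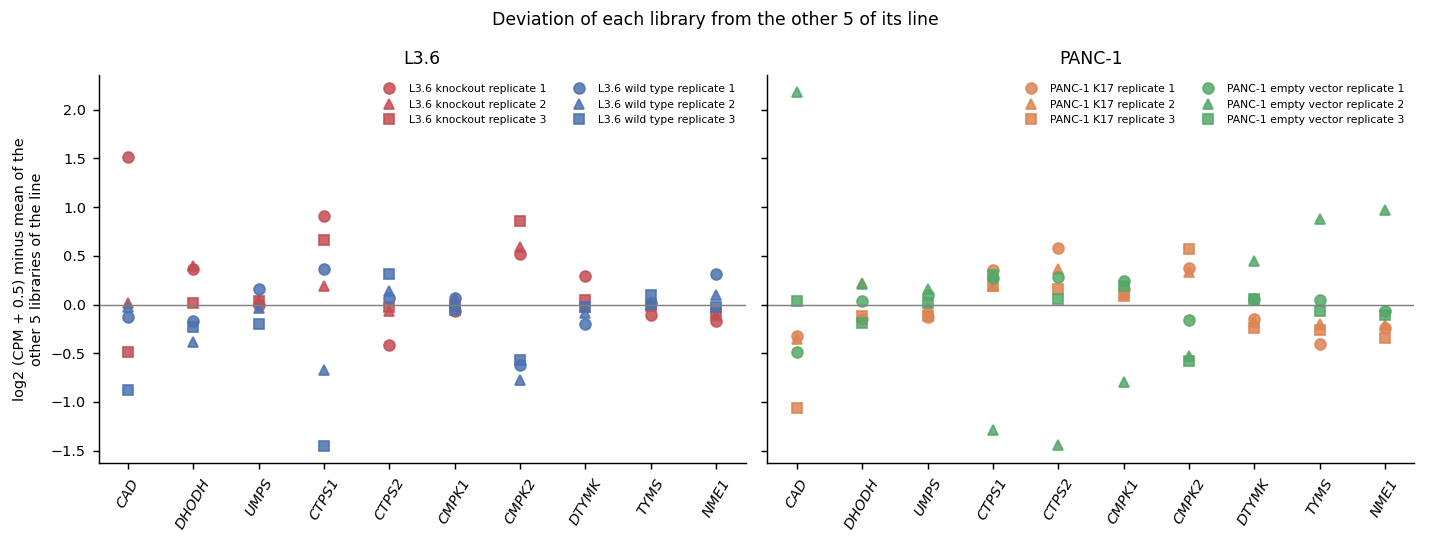
Deviation of each library from the mean of the other 5 of its line, as log2 of CPM plus 0.5, for the 10 genes in L3.6 (left) and PANC-1 (right). The triangle of PANC-1 empty vector replicate 2 lies at 2.18 for CAD, -1.29 for CTPS1 and -1.44 for CTPS2; in L3.6, knockout replicate 1 lies at 1.51 for CAD and wild-type replicate 3 at -1.45 for CTPS1.

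PANC-1 empty vector replicate 2 did not shift the pathway as a block. It was the highest of the 6 PANC-1 libraries for CAD, UMPS, DTYMK, TYMS and NME1, and the lowest for CTPS1, CTPS2 and CMPK1. In 8 of the 10 genes it lay outside the range of the other 5, as it did in 76.5% of all genes tested. In 6 of the 10 it did so by at least 0.5 on the log2 scale, beside 47.6% of all genes tested. RRM1, the large subunit of ribonucleotide reductase that turns these nucleotides into DNA precursors, had 23741 counts there, while the remaining PANC-1 libraries held 1756 to 2549. The cause was not tested.

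Levels were then set across the 4 groups on 1 scale, as a description, since the lines differ in far more than K17. In 5 of the 10 genes the range of the L3.6 libraries did not overlap that of the PANC-1 libraries, where 47.3% of 17583 genes had such ranges, and in 7 of 10 without empty vector replicate 2, against 58.6%. By line medians, CTPS1 was 10.6-fold, TYMS 2.66-fold and CMPK1 2.04-fold higher in PANC-1, while CMPK2 was 8.07-fold and DHODH 1.93-fold higher in L3.6. For CMPK2 the order was L3.6 knockout, L3.6 wild type, PANC-1 with K17 and PANC-1 with the empty vector, with no overlap between any neighbours.

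For DHODH the order ran from L3.6 knockout to L3.6 wild type to the PANC-1 groups, which overlapped each other. For CAD all neighbouring groups overlapped. Within every group NME1 and CMPK1 were the most abundant per kilobase (82.3 and 52.7 CPM per kb in the L3.6 knockout, 57.2 and 106 in PANC-1 with K17) and TYMS came next. CAD, DHODH and CMPK2 were the lowest of the 10 in each group.

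The counts of the following gene lists are to be read against the shares of all genes that passed, 6.1% higher and 3.51% lower in the L3.6 knockout, and 11.4% higher and 9.25% lower in PANC-1 without empty vector replicate 2. Of 12 other enzymes of pyrimidine nucleotide handling, 1 rose in the L3.6 knockout and 0 fell. It was DCTD, the deaminase that makes dUMP for TYMS, at 130 ± 6.62 CPM in the knockout and 94.4 ± 5.26 CPM in wild type (SD, n = 3 each, log2 fold change 0.46, edgeR adjusted p = 0.00378). Without wild-type replicate 1 the list had 5 calls, and without knockout replicate 3 it had 2. In PANC-1 0 of the 12 passed edgeR's test with all libraries (1 at an unadjusted p under 0.05, 1 by DESeq2 and 0 by limma-voom). Without empty vector replicate 2, SAMHD1, which hydrolyses dNTPs, rose by 0.49 and NME4, the mitochondrial nucleoside diphosphate kinase, fell by 0.25 on the log2 scale. The median of the list was -0.02 in L3.6 and -0.03 in PANC-1 without that library, beside -0.01 and 0.01 over all genes.

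Among 11 tested genes of the folate cycle, which hands TYMS its methyl group, 4 rose and 1 fell in the L3.6 knockout. SHMT2, the mitochondrial serine hydroxymethyltransferase, stood at 86.3 ± 3.40 CPM in the knockout and 35.5 ± 9.47 CPM in wild type (log2 fold change 1.27, edgeR adjusted p = 0.00375). MTHFD1L and FPGS rose by 0.42 and 0.46, and the cytosolic MTHFD1 fell by 0.47 on the log2 scale. The median of the list was 0.16, and it had 4 or 5 calls when any single L3.6 library was left out but 1 call in 1 fit of the 4 groups. In PANC-1 0 of 12 passed with all libraries (edgeR, 1 at an unadjusted p under 0.05, 1 by DESeq2 and 0 by limma-voom).

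Without PANC-1 empty vector replicate 2, 1 folate gene rose and 3 fell. Among those that fell, MTHFD1L and MTHFD2L, both of the mitochondrial folate pathway, had log2 fold changes of -0.14 and -0.27 (edgeR adjusted p = 0.0385 and 0.0439).

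A list of 13 genes held GPX4 and genes for the synthesis and use of ubiquinone, the electron acceptor of DHODH. GPX4 itself neither makes nor uses ubiquinone. None of the 13 passed edgeR's test in the L3.6 knockout (2 at an unadjusted p under 0.05, 1 by DESeq2 and 0 by limma-voom). GPX4 had a log2 fold change of 0.25 (edgeR adjusted p = 0.0606) and COQ2 of 0.06. Without knockout replicate 2 or wild-type replicate 1 there was 1 call. In PANC-1 without empty vector replicate 2, GPX4, the lipid peroxidase that acts beside DHODH against ferroptosis, rose by 0.29 (edgeR adjusted p = 0.000651). The genes of ubiquinone synthesis and use did not pass. With that library 0 passed in edgeR (0 at an unadjusted p under 0.05), DESeq2 or limma-voom. Of 13 protein genes of mitochondrial DNA, 2 rose and 1 fell in the L3.6 knockout. MT-ND4 and MT-ND4L rose by 0.23 and 0.24 and MT-ND1 fell by 0.26 on the log2 scale. There was 1 call without wild-type replicate 3, 3 without wild-type replicate 1, and 0 without any of the other L3.6 libraries. In PANC-1 with all libraries, 0 of these 13 passed edgeR's test (0 at an unadjusted p under 0.05), with 11 negative and a median of -0.38. Without empty vector replicate 2, 3 rose and 2 fell with K17, beside 11.4% and 9.25% of all genes. MT-ATP6 and MT-CO3 rose by 0.23 and 0.25, and MT-ND5 and MT-ND6 fell by 0.20 and 0.22 on the log2 scale.

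Of 8 known regulators of CAD, 2 fell in the L3.6 knockout and 0 rose, beside 3.51% and 6.1% of all genes. They were MAX, the partner of MYC (log2 fold change -0.38, edgeR adjusted p = 0.0126), and RPS6KB1, the S6 kinase that phosphorylates CAD (-0.42, edgeR adjusted p = 0.0211). Without knockout replicates 2 or 3 there were 0 calls, without knockout replicate 1 or wild-type replicate 3 there was 1, and without wild-type replicate 1 there were 3. MYC averaged 235 ± 9.74 CPM in the knockout and 225 ± 25.3 CPM in wild type (SD, n = 3 each). In PANC-1 without empty vector replicate 2, MAX and RPTOR rose by 0.33 and 0.23 and RPS6KB1 fell by 0.28 on the log2 scale, and with all libraries 0 of the 8 passed in edgeR (0 at an unadjusted p under 0.05), DESeq2 or limma-voom.

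Of 11 genes that supply glutamine, aspartate and the ribose donor, 3 rose and 1 fell in the L3.6 knockout. The asparagine synthetase ASNS rose by 0.53, the glutamine importer SLC1A5 by 0.32 and the glutamine synthetase GLUL by 0.28 on the log2 scale. GOT1, the cytosolic enzyme that interconverts aspartate and glutamate, stood at 3.43 ± 0.762 CPM in the knockout and 9.50 ± 1.13 CPM in wild type (log2 fold change -1.46, edgeR adjusted p = 0.00641). GOT1 rose by 0.54 with K17 in PANC-1 without empty vector replicate 2, where 4 of the 11 rose and 1 fell, beside 11.4% and 9.25% of all genes. With all PANC-1 libraries 0 passed in edgeR (0 at an unadjusted p under 0.05), DESeq2 or limma-voom. The 4 calls in L3.6 became 1 without knockout replicate 2, knockout replicate 3 or wild-type replicate 2.

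Of 15 tested S phase genes, 1 rose in the L3.6 knockout, the replication licensing factor CDT1 at 3.76 ± 0.354 CPM, against 0.780 ± 0.705 CPM in wild type (log2 fold change 2.16, edgeR adjusted p = 0.0373). There were 4 calls without wild-type replicate 1, and 0 without any single knockout library or wild-type replicate 2. In PANC-1, 12 of 14 had negative log2 fold changes with a median of -0.44, and 0 passed edgeR's test (2 at an unadjusted p under 0.05, 0 by DESeq2 and 0 by limma-voom). Without empty vector replicate 2 the median was -0.30 and 5 of 14 fell with 0 rising, where 9.25% of all genes fell, and TYMS and NME1 fell in that fit too. They included the cyclins CCNE1 (-0.45) and CCNE2 (-0.52) and the helicase subunits MCM5 (-0.20) and MCM7 (-0.12). Whether the share of cells in S phase differed was not tested, and in bulk RNA fewer cells in a state and less RNA per cell cannot be told apart.

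CMPK2 belongs to the interferon-stimulated genes, which on balance did not follow it in L3.6. Of 23 tested genes of that list, 1 rose and 1 fell in the L3.6 knockout. The gene that fell was MX2, with a log2 fold change of -0.91 (edgeR adjusted p = 0.0451). In all, 16 of the 23 had negative log2 fold changes, and the median was -0.19, where CMPK2 had 1.30. There were 3 calls without wild-type replicate 1 and 0 without any other single L3.6 library. In PANC-1, 23 of 26 had positive log2 fold changes with a median of 0.58, and 0 passed edgeR's test (10 at an unadjusted p under 0.05), while DESeq2 called 8 and limma-voom 1.

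Without empty vector replicate 2, 13 of the 26 rose with K17 in PANC-1 and 0 fell, with a median of 0.70, beside 11.4% of all genes higher. IFIT2, an RNA-binding antiviral protein, had 37.9, 41.4 and 41.4 CPM with K17, against 15.6, 7.75 and 14.3 CPM with the empty vector. All 3 K17 libraries were above all 3 empty vector libraries, with a log2 fold change of 1.68 (edgeR adjusted p = 0.0737) and, without replicate 2, of 1.42 (edgeR adjusted p = 4.53e-05, SE 0.0735). IFIT3 rose by 2.52, the ISG15 protease USP18 by 1.22 and PARP9 by 1.10. In the L3.6 knockout IFIT2 had 19.8, 18.8 and 18.3 CPM, against 16.2, 17.3 and 19.5 CPM in wild type, with overlapping groups. Its K17 effect also differed between lines, by 1.76 (log2; edgeR adjusted p = 0.0103). Of the list 2 genes passed that test, IFIT2 and PARP9, each with a positive value, beside 1.54% of all genes. Without empty vector replicate 2, 6 passed, beside 11.5% of all genes. Of these MX2 was negative (-0.85) and the rest were positive.

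**Figure D4:**
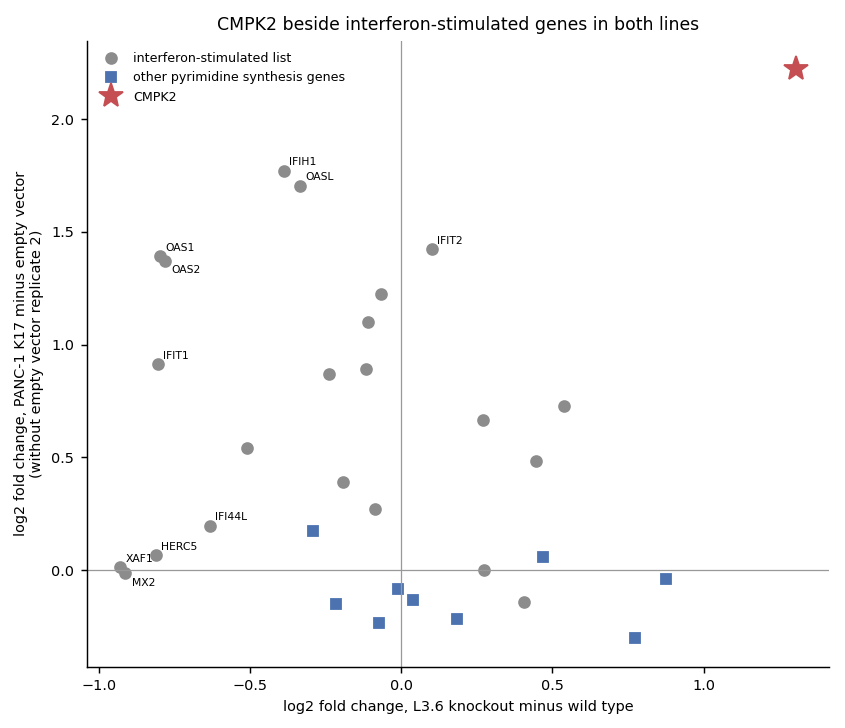
Log2 fold change in the L3.6 knockout (x axis) against that with K17 in PANC-1 without empty vector replicate 2 (y axis), for 22 interferon-stimulated genes (circles), CMPK2 (star) and the other 9 pyrimidine synthesis genes (squares). CMPK2 lies at 1.30 and 2.22, while most interferon-stimulated genes lie left of 0 and above 0 and the squares lie near 0 on the y axis.

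The genes most like CAD, DHODH and CMPK2 were found by Pearson's r of log2 CPM over the 12 libraries after taking off each line's mean, among 7985 genes with at least 5 CPM on average in each line. CMPK2 was most like AMIGO2 (r = 0.97), the mitochondrial thymidine kinase TK2 (0.96) and EXT1 (0.96), and these values were 0.97, 0.95 and 0.96 without empty vector replicate 2. DHODH was most like PHF23 (0.95), TBL2 (0.93) and the mitochondrial gene MT-ND4L (0.90). CAD was most like DHPS, RUVBL2 and AP4M1 (0.94, 0.93 and 0.93), and less so without empty vector replicate 2 (0.85, 0.84 and 0.83). The libraries share groups and the high values were picked from many genes, so these are descriptions only.

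The 10 genes did not move as a unit across libraries. By the same measure CAD and DHODH had an r of 0.59 (0.49 without empty vector replicate 2) and TYMS and NME1 of 0.94 (0.71). CAD and CTPS2 ran opposite to each other (-0.89, and -0.72 without that library). CMPK2 and CMPK1, the enzymes of the same reaction, had 0.25 (-0.04 without it).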

How the data were processed

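Total RNA of L3.6 and PANC-1 cells was taken up in TRIzol and, per the labels' protocols, sequenced from Illumina TruSeq libraries. The values used are whole-number counts per gene and sample, as the authors deposited them, with no normalization. Per the submitters' processing notes, bcl2fastq 1.8.4, STAR 2.7.3a and kallisto 0.46.2 were used with GRCh38 and GRCm38, but the tool behind the counts, its annotation, its strand setting and its handling of shared reads is not given in the sources used here. Names and coordinates came from GENCODE 29, which holds 34474 of the 34505 rows (33619 in the same version). Sequences came from RefSeq on GRCh38.p14.

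The 2 lines had separate fits in R 4.3.3 with edgeR 4.0.16: filterByExpr, TMM factors, glmQLFit (robust) and glmQLFTest. P-values were adjusted by Benjamini and Hochberg's method over every gene that passed the filter, at a threshold of 0.05. Standard errors and 95% intervals were derived from the F statistic. The difference between lines was an interaction over all 12 libraries. CPM used TMM factors within a line, and over the 12 libraries for levels between lines and per kilobase. All 10 genes passed the filter in both lines. No replicate pair agreed within sampling noise (lowest chi-square per degree of freedom 5.1), and every library was treated as a sample of its own. That spread cannot show whether replicates were separate cultures. Replicate numbers were not used to pair the libraries in the main fits, and whether they do pair them could not be settled. Other settings were upper-quartile or RLE factors, 1 CPM in 3 libraries or no filter, limma-voom (limma 3.58.1), DESeq2 1.42.0, 1 fit of the 4 groups, leaving out each library, and a replicate block. The test was tried on simulated data first.

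The 10 genes, the gene lists and the tests were chosen with earlier results of these data known. The text names all 10 genes, KRT17, up to 4 passing genes per list (or the 2 most abundant where 0 passed) and the 3 genes most like CAD, DHODH and CMPK2. MYC, RRM1, NME2, TUBB, CANX and the overlapping genes were added after their values were seen. Some genes that this rule takes are left out here. E2F1, IFIT5, CXCL10, SOX2 and DSG3, on the lists, were not analysed here. The mouse samples were not used here.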

Additional observations from a re-analysis of the deposited data

Results flagged for a closer look

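CMPK2 was picked out because its K17 effect differed between the lines by a test of the difference itself. The effect in PANC-1 (K17 minus empty vector) minus the effect in L3.6 (wild type minus knockout) was 3.85 on the log2 scale (SE 0.697, edgeR adjusted p = 0.0206). All 3 L3.6 knockout libraries were above all 3 wild-type libraries, and all 3 PANC-1 K17 libraries were above all 3 empty vector libraries. The PANC-1 side rests on few counts, 77 with K17 and 14 with the empty vector, 11 of these 14 in replicate 1. The cause was not tested.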

How the results depend on the processing

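In L3.6, edgeR called 1 of the 10 genes. The number was 2 with upper-quartile factors (with NME1 at -0.26, edgeR adjusted p = 0.0372), 0 with the replicate number as a block and 0 in 1 fit of the 4 groups. It ran from 0 to 2 when libraries were left out, with 0 without knockout replicate 2, knockout replicate 3 or wild-type replicate 2 and 2 without wild-type replicate 1. In PANC-1, 0 passed, 1 with DESeq2, 1 in 1 fit of the 4 groups (CMPK2, edgeR adjusted p = 0.037) and 0 to 2 when libraries were left out. In the test between lines 1 passed, 0 with the replicate block and 0 to 1 when libraries were left out. CMPK2 had adjusted p values of 0.0711 in L3.6 and 0.0547 between lines under the replicate block.

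Signs turned for small values. UMPS in L3.6 was -0.011 with upper-quartile factors. CMPK1 in L3.6 was 0.03 with no filter and 0.015 in 1 fit of the 4 groups. When libraries were left out, UMPS in L3.6 ran from -0.033 to 0.134, CMPK1 in L3.6 from -0.04 to 0.024, and in PANC-1 DHODH from -0.162 to 0.058, CTPS1 from -0.037 to 0.485 and CMPK1 from -0.083 to 0.296. Between lines, CAD ran from -1.153 to 0.526, UMPS from -0.223 to 0.105, CTPS2 from -0.037 to 0.559, CMPK1 from -0.02 to 0.335 and DTYMK from -0.176 to 0.04.

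Over all genes, 1335 passed in L3.6, against 665 with the replicate block, 204 in 1 fit of the 4 groups and 574 to 2493 (without wild-type replicate 1) when libraries were left out. The share of calls that were higher was 63.4%, and 52.5% with upper-quartile factors. In PANC-1, 105 passed, against 595 with DESeq2, 363 in 1 fit of the 4 groups, 0 with the replicate block and 0 to 3442 (without empty vector replicate 2) when libraries were left out. Between lines 270 passed, against 783 with DESeq2, 151 with the replicate block and 138 to 1819 when libraries were left out. The count of the 10 genes in L3.6 was 1 with RLE factors, no filter, the CPM filter, DESeq2 and limma-voom. Deviations of same-numbered libraries had correlations of -0.145 to 0.014 in L3.6 and 0.041 to 0.145 in PANC-1. Between different numbers they were -0.099 to 0.136 in L3.6 and -0.138 to 0.098 in PANC-1. Not every library correlated best with its own number. With 3 libraries per group, such weak values cannot exclude a pairing by number. Where an arm was left with 2 libraries, the spread was pooled. CMPK2 was below the filter of 1 CPM in 3 libraries in PANC-1. The cause of these changes was not tested.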
